A study of Saccharomyces cerevisiae with 5 samples.

Results

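The 3′ part of 25S rRNA, the larger RNA of the large ribosomal subunit, was examined in native elongating transcript sequencing (NET-seq) of RNA polymerase I from budding yeast. It comprises the nucleotides that the files assign to 25S at nt 4950 to 6647 of the rDNA repeat, counted from the first nucleotide of the 35S precursor. These are 1698 of the 9137 nucleotides of the repeat, and they were chosen by position, not by any measured value. They lie at chrXII:460923-462620 on the minus strand, and are nt 1699 to 3396 of 25S, which is divided at its middle. The gene runs toward the lower chromosome coordinates. In RefSeq assembly R64 the bounds of 25S in the files are those of RDN25-2, a non-coding rRNA gene, and the stretch lies wholly within the mature RNA. The study compared 2 libraries of rpa190-F1205H with 3 of WT. Both genotypes carried an HA tag on Rpa135, the second-largest subunit of the polymerase, through which the complexes were precipitated, and both grew in YEPD. Rpa190 is the catalytic subunit, and the substitution lies in its trigger loop, a mobile element of the active site. The labels name no other allele and do not say whether libraries of a genotype came from separate cultures, so that p-values measure the spread between these libraries, which may be technical.

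RNA polymerase I makes a single long precursor, from which 18S, 5.8S and 25S are cut. NET-seq maps the 3′ end of the RNA held by the polymerase, so that many 3′ ends at one nucleotide mark a place where polymerases were often found. Finished rRNA that comes down with the polymerase adds 3′ ends of its own at the mature end of 25S. In the ribosome the 3′ part of 25S folds into the domains that hold the peptidyl transferase centre, which joins amino acids, the A loop, which binds the end of the incoming tRNA, and the sarcin-ricin loop, which is needed by the elongation factors.

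The sense strand of the stretch held 476408 and 82491 3′ ends in the rpa190-F1205H libraries, and 181132, 155566 and 155600 in the WT libraries. Without the last 6 nt, where finished 25S ends, 367459 and 61932 remained in rpa190-F1205H, and 103160, 89832 and 94795 in WT. Shares below are percentages of these latter totals unless stated otherwise, and the limit that a count of 0 allows, 3 counts of the total, is 8.16e-04% and 0.00484% in rpa190-F1205H and 0.00291%, 0.00334% and 0.00316% in WT. The sample column inside both files labelled rpa190-F1205H reads WT, so that their genotype rests on the sample labels, and RPA190 itself was not measured. Across the 1692 nucleotides Spearman's rho was 0.927 between the rpa190-F1205H libraries, 0.957 to 0.967 among the WT libraries and 0.497 to 0.565 between a library of each genotype, as a description across positions that share their libraries.

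The stretches in which the profiles differed most are shown first, as RNA, 5′ to 3′, from the base column of the files. In the first window of 100 nt, the one with the largest rise, capitals mark the single positions that were called higher in rpa190-F1205H. In the second, the one with the largest fall, they mark the positions called lower.
chrXII:462321-462420, minus strand, nt 5150 to 5249: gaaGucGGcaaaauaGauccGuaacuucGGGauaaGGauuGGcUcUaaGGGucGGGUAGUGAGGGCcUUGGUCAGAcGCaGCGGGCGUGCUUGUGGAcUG
chrXII:462021-462120, minus strand, nt 5450 to 5549: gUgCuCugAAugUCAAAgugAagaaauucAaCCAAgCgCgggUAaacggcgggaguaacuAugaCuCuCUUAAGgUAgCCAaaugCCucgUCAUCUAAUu

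The 3 longest unbroken runs of positions called higher, in capitals with 8 nt on each side, are rich in G.
chrXII:461682-461722, minus strand, nt 5848 to 5888: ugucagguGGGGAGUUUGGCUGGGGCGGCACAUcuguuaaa
chrXII:461038-461076, minus strand, nt 6494 to 6532: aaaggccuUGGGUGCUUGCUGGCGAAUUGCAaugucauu
chrXII:462316-462348, minus strand, nt 5222 to 5254: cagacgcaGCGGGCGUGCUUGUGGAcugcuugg
Of the runs called lower, the 2 longest and 1 of 2 tied at 9 nt (the other is nt 5745 to 5753) are shown likewise. None of the 3 shown holds a G, but only 5 of 419 tested G positions were called lower, so that such runs could hold few.
chrXII:461790-461823, minus strand, nt 5747 to 5780: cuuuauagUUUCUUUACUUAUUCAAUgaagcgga
chrXII:461139-461168, minus strand, nt 6402 to 6431: uuucuuugCUCCACACAAUAUAgauggaua
chrXII:462014-462038, minus strand, nt 5532 to 5556: augccucgUCAUCUAAUuagugacg

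The stretch held less of the gene's signal in rpa190-F1205H than in WT. It took 25.6% and 27.4% of the sense 3′ ends of the 35S gene in rpa190-F1205H, and 34.9%, 34.9% and 33.4% in WT, while it makes up 24.8% of the gene's nucleotides. Without the last 6 nt of 25S the shares were 21.0% and 22.1% in rpa190-F1205H and 23.4%, 23.7% and 23.4% in WT. The groups did not overlap in either measure. The size of the difference depended on which mature ends were counted, since with the last 6 nt of 18S, 5.8S and 25S all left out the mean was 23.5% in rpa190-F1205H and 30.2% in WT. Of the signal within 25S, again without the last 6 nt, 44.5% ± 0.173 lay in the 3′ part in rpa190-F1205H (SD, n = 2) and 51.1% ± 0.301 in WT (SD, n = 3). A two-sided exact permutation test gave p = 0.2 for each of these differences, which is the smallest that 10 splits of 3 libraries against 2 allow. No single value over the libraries can therefore pass 0.05 in this design.

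The last nucleotide of 25S was by far the highest position of the stretch, and lower in rpa190-F1205H. Here the sequence is shown with the last 6 nt in capitals.
chrXII:460923-460952, minus strand, nt 6618 to 6647: cugagauuaagccuuuguugucugAUUUGU
The final U, nt 6647, took 22.0% and 23.9% of all sense 3′ ends of the stretch in rpa190-F1205H and 42.3%, 41.4% and 38.2% in WT. Per 100 3′ ends in the rest of the stretch, 28.5 and 31.9 lay at this nucleotide in rpa190-F1205H, against 74.3, 71.7 and 62.6 in WT. It fell by 1.20 ± 0.20 on the log2 scale (SE), with an adjusted p of 1.91e-05 in edgeR's quasi-likelihood test. The nucleotide before it moved the other way. G at nt 6646 held 2320 and 399 counts in rpa190-F1205H and 352, 359 and 352 in WT, which is 0.487% and 0.484% of the stretch in rpa190-F1205H and 0.194%, 0.231% and 0.226% in WT. Relative to the rest of the stretch it rose by 0.78 ± 0.194 (log2 fold change, SE, edgeR adjusted p = 0.00123), but under TMM scaling the value was 0.33 and did not pass. The other positions of the last 6, nt 6642 to 6645, were all lower in rpa190-F1205H, with log2 fold changes from -1.03 to -0.70. All 4 passed, while the calls at nt 6642 and nt 6645 were lost without rpa190-F1205H library 1 and when scaled to the stretch with its last 6 nt.

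**Figure D1:**
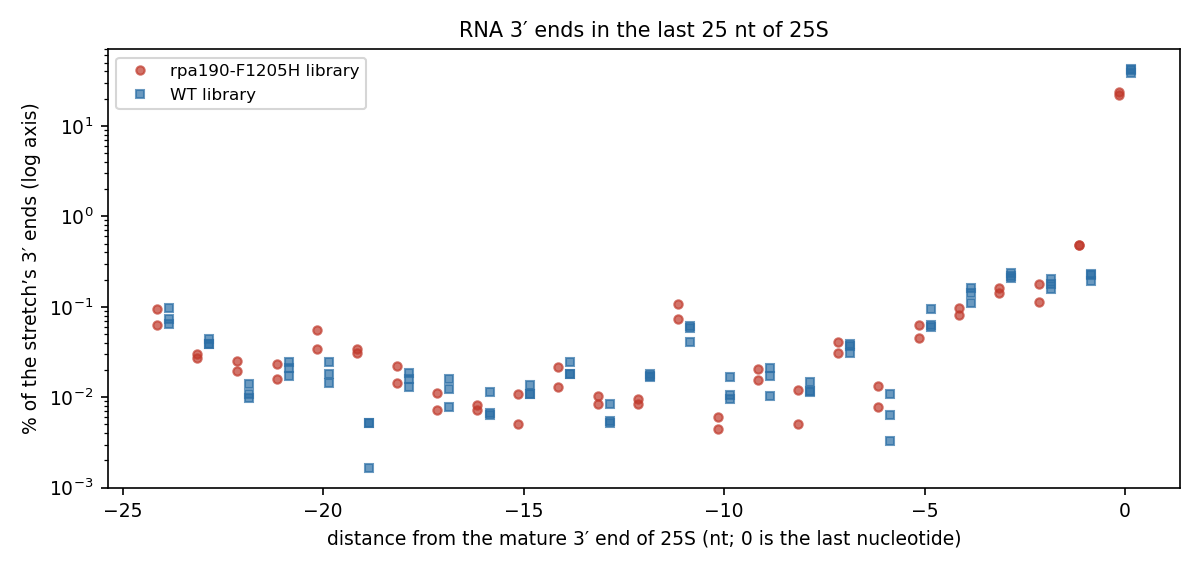
Share of the stretch's sense 3′ ends at each of the last 25 nt of 25S (log axis) against distance from the mature 3′ end, with 1 point per library (rpa190-F1205H left of WT at each distance). At the last nucleotide both rpa190-F1205H libraries (22.0% and 23.9%) lie under the 3 WT libraries, while 1 nt before it they lie above them.

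Along the rest of the stretch, some windows held a larger share in rpa190-F1205H and others a smaller share. Since shares are of the stretch's own total, rises and falls must offset each other, and their balance is no result. In windows of 100 nt, 5 of 17 rose and 5 fell in edgeR. With the same scaling 55.7% of the 70 windows of the whole gene rose and 14.3% fell, 70.0% in all. The largest rise was in nt 5150 to 5249, which held 10.3% and 10.8% in rpa190-F1205H and 6.38%, 6.50% and 6.64% in WT. The groups did not overlap, and the log2 fold change was 0.69 ± 0.0692 (SE, edgeR adjusted p = 3.87e-08). The window after it, nt 5250 to 5349, held 5.67% and 5.03% in rpa190-F1205H, against 3.61%, 3.42% and 3.90% in WT (0.56 ± 0.0878, edgeR adjusted p = 1.37e-05). Near the 3′ end, nt 6450 to 6549 held 5.48% and 5.09% in rpa190-F1205H, against 3.46%, 3.34% and 3.67% in WT (0.60 ± 0.0834, edgeR adjusted p = 3.11e-06). Each of these windows was above every WT library in both rpa190-F1205H libraries.

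The largest fall was in nt 5450 to 5549, which was the highest window in WT. It held 7.64% and 7.99% in rpa190-F1205H, against 13.2%, 12.3% and 13.2% in WT, a log2 fold change of -0.72 ± 0.0708 (SE, edgeR adjusted p = 3.03e-08). The last window before the mature end, nt 6550 to 6641, held 4.34% and 4.63% in rpa190-F1205H and 5.88%, 6.26% and 6.52% in WT (-0.47 ± 0.0801, edgeR adjusted p = 3.13e-05). In nt 6050 to 6149 the shares were 3.44% and 3.26% in rpa190-F1205H, against 4.22%, 3.86% and 4.19% in WT (-0.29 ± 0.0873, edgeR adjusted p = 0.0068). These fold changes compare parts of the stretch with each other. Under TMM scaling, which follows the whole gene, the median of all values moved down by 0.46, so that 1 window passed as higher and 12 as lower, and the rises in nt 5250 to 5349 and nt 6450 to 6549 no longer passed. Scaled to the stretch with its last 6 nt, 9 passed as higher and 1 as lower, nt 6550 to 6641 no longer passed, and nt 6050 to 6149 turned to 0.09.

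**Figure D2:**
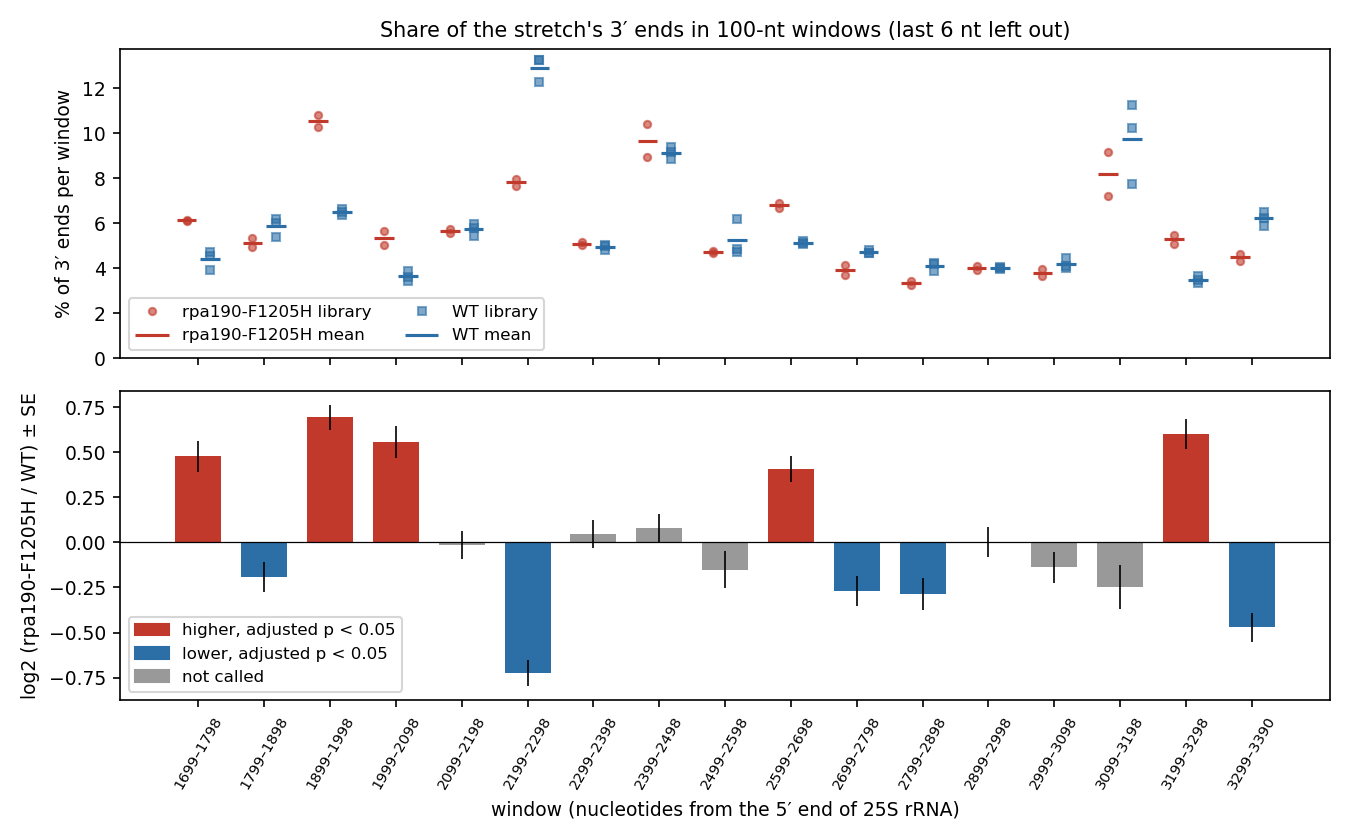
Share of 3′ ends in each 100 nt window for every library (upper panel, points, with group means as bars) and the log2 fold change of rpa190-F1205H over WT with its SE from edgeR (lower panel). The x axis gives nucleotides from the 5′ end of 25S. The window at 25S nt 1899 to 1998 shows the largest rise and that at 2199 to 2298 the largest fall.

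The windows that rose were the ones with the most G. G made up 30.0% to 38.0% of the 5 windows that rose, 23.0% to 28.0% of the 7 not called, and 23.0% to 26.1% of the 5 that fell. Across the 17 windows, Pearson's r between the share of G and the log2 fold change was 0.88 and Spearman's rho 0.86. For A the r was -0.53, for U -0.36 and for C 0.20. These are descriptions, since the windows come from the same 5 libraries.

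RNA 3′ ends lay more often at G in rpa190-F1205H, and less often at A and C. G was the last base of 28.9% and 26.0% of the 3′ ends in rpa190-F1205H, against 14.4%, 15.6% and 12.1% in WT, while it makes up 27.6% of the nucleotides. A was the last base of 22.5% and 27.8% in rpa190-F1205H, against 33.5%, 34.3% and 36.0% in WT. For C the shares were 17.7% and 16.9% in rpa190-F1205H and 22.0%, 20.5% and 22.3% in WT. The groups did not overlap for these bases. U ended 30.96% and 29.35% in rpa190-F1205H and 30.14%, 29.57% and 29.60% in WT, so that the groups overlapped. Two-sided exact permutation p was 0.2 for G, A and C and 0.8 for U, and 0.3 and 0.873 after Benjamini-Hochberg adjustment over the 12 shares of last, preceding and following base.

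A single G decided much of the spread of the G share among the WT libraries. With nt 6409 left out, an alternative chosen after seeing the data, G ended 24.0% and 22.5% of the 3′ ends in rpa190-F1205H and 8.61%, 8.92% and 8.72% in WT. The difference was then 14.5 percentage points in place of 13.4, and the SD in WT was 0.159 in place of 1.80. With the last 6 nt of 25S kept, G ended 22.78% and 19.98% in rpa190-F1205H and 8.39%, 9.26% and 7.58% in WT. In that case U ended 46.2% and 46.4% in rpa190-F1205H and 59.96%, 59.04% and 56.79% in WT, because the last nucleotide is a U, and the groups overlapped for A and C. In 16 of the 17 windows the share of 3′ ends at G was higher in both rpa190-F1205H libraries than in every WT library. The exception was nt 6350 to 6449, which holds nt 6409.

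**Figure D3:**
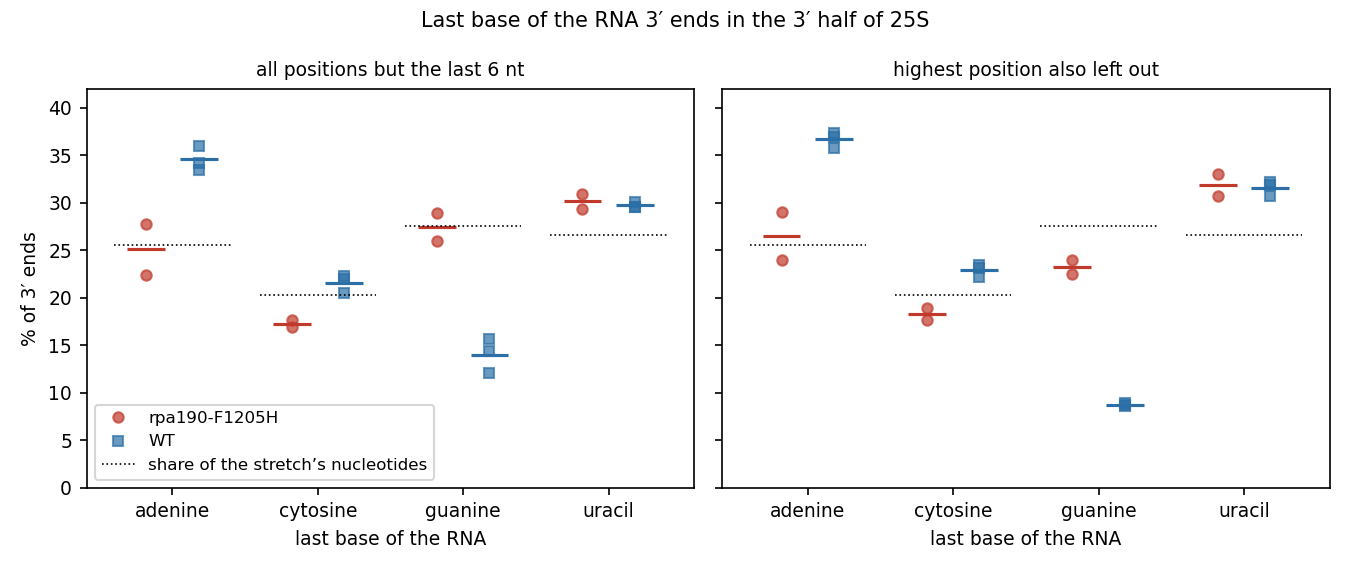
Percentage of 3′ ends by last base in each library (points, rpa190-F1205H left of WT, bars are group means), with the share of each base among the nucleotides as a dotted line. The left panel shows the stretch without its last 6 nt, and the right panel also without nt 6409, where the 3 WT libraries lie between 8.61% and 8.92% at guanine.

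The base after the 3′ end, which is the next one the polymerase would copy, also differed. It was G for 33.3% ± 1.67 of 3′ ends in rpa190-F1205H (SD, n = 2) and for 27.6% ± 0.696 in WT (SD, n = 3), and U for 15.9% ± 0.983 in rpa190-F1205H and 21.2% ± 0.561 in WT. The base before it was C for 20.7% ± 1.04 in rpa190-F1205H and 17.8% ± 0.365 in WT, and A for 22.9% ± 0.683 in rpa190-F1205H and 26.4% ± 0.504 in WT. The groups did not overlap in these 4 shares, and each had an exact permutation p of 0.2 (0.3 adjusted).

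At single nucleotides, 1610 of the 1692 passed the filter on low counts, and 551 of them rose and 481 fell, with the edgeR test and an adjusted p under 0.05. This is 64.1% of the tested positions, against 67.3% over all tested positions of the gene, of which 46.5% rose and 20.8% fell. At 1021 of the called positions the libraries of the genotypes did not overlap, a class that takes 65.8% of the gene's tested positions. With TMM scaling 375 rose and 723 fell, where 69.6% of the gene's positions were called in either direction, so that the higher positions were 34.2% of the calls in place of 53.4%. They were 70.5% when scaled to the stretch with its last 6 nt (713 rose and 298 fell). A position of low count can pass the filter through one genotype alone, so counts are also given with all 1692 positions in the test. Then 328 of 467 G positions rose and 5 fell. Of 432 A positions 63 rose and 196 fell, of 343 C positions 72 rose and 143 fell, and of 450 U positions 114 rose and 140 fell. Among positions that passed the filter, the median log2 fold change was 1.46 at G, -0.25 at U, -0.39 at C and -0.54 at A, against 0.02 over the stretch and 0.49 over the tested positions of the gene. Under TMM the medians were 1.04 at G, -0.71 at U, -0.91 at C and -0.998 at A. With at least 10 counts required in every library the median at G was 0.93, and that of the other bases together -0.35. With the filter used, the other bases together had -0.37.

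Median fold changes at one base also varied with its neighbours on either side. For comparison, tested G positions of the stretch numbered 419, with 308 called higher and 5 lower. Those of the gene numbered 1579, with 1317 called higher and 14 lower. For C the stretch had 69 higher and 142 lower among 328, and the gene 361 and 348 among 1117. For U the numbers were 114 and 138 among 441 in the stretch, and 638 and 331 among 1687 in the gene. A had 60 higher and 196 lower among 422 in the stretch, and 476 and 555 among 1617 in the gene. Of 88 tested G positions followed by C, 70 rose and none fell, with a median log2 fold change of 1.94. For G followed by U, 58 of 89 rose and 2 fell (median 1.13). Of 99 tested C positions followed by U, 13 rose and 60 fell (median -1.02), while of 75 followed by G, 19 rose and 21 fell (-0.01). Of 133 U positions followed by G, 47 rose and 27 fell (0.16), and of 125 followed by U, 22 rose and 56 fell (-0.56). Medians at A ran from -0.75 before U to -0.44 before G. With the preceding base, the medians ran from 1.08 after A to 1.86 after C for G positions, and from -0.89 after U to -0.06 after G for A positions. For U positions they ran from -0.39 after G to 0.31 after C, and for C positions from -0.61 after C to -0.09 after G. Pairs of bases were compared as values only, and the differences between them were not tested. All counts and medians in this paragraph are of positions that passed the filter, such as 88 of the 104 G positions followed by C. A position of low count can pass through 1 genotype alone, and G was the rarest last base in WT. Pairs were not counted with all positions in the test.

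**Figure D4:**
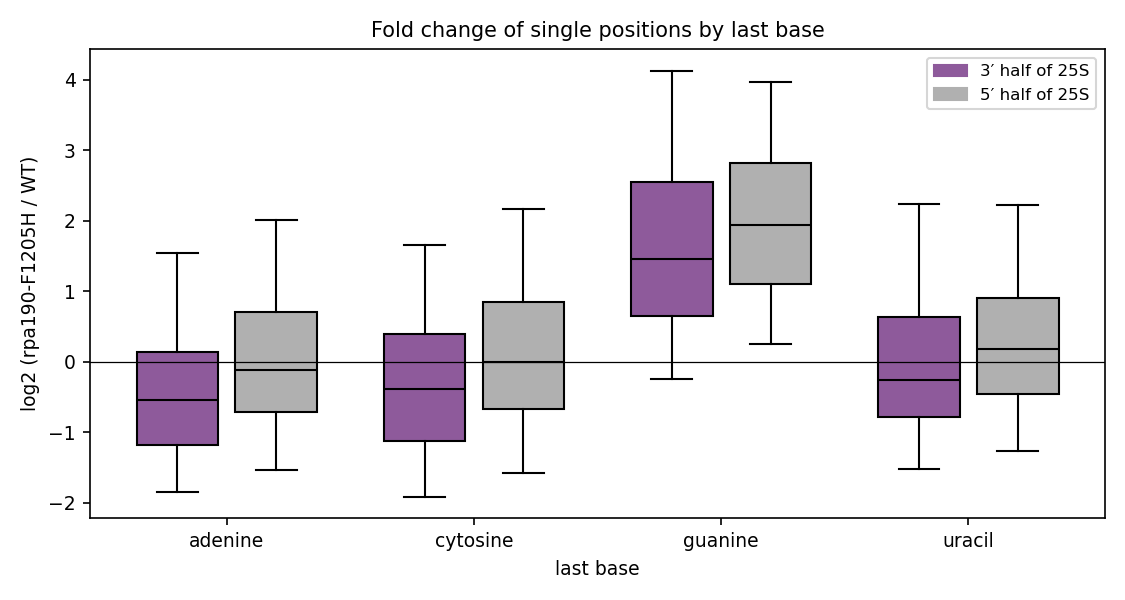
Log2 fold change of rpa190-F1205H over WT at single tested positions by last base, in the 3′ part of 25S and beside it in the 5′ part, both scaled to the 3′ part without its last 6 nt. Boxes are quartiles with the median as a line, and whiskers run between the 5th and 95th percentiles. The median at guanine is 1.46 in the 3′ part and 1.94 in the 5′ part. On this scale the medians at the other bases are higher in the 5′ part as well. They are -0.54 and -0.12 at adenine, -0.39 and 0.003 at cytosine, and -0.25 and 0.18 at uracil, 3′ part first.

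G is the base at 7 of the 8 positions with the highest fold change, taken where the genotypes did not overlap. The list asked for at least 10 counts only in the rpa190-F1205H libraries, and each WT library held 0 to 6 counts at these positions. G was also the rarest last base in WT. The list therefore describes these positions and is not a test of the base. At G nt 5275 the libraries held 0.265% and 0.203% in rpa190-F1205H, against 0.00291%, 0% and 0.00633% in WT. Its log2 fold change was 6.21 ± 0.379 (SE, edgeR adjusted p = 2.58e-11). At G nt 5874 in the longest run called higher, the shares were 0.158% and 0.132% in rpa190-F1205H, against 9.69e-04%, 0.00334% and 0.00105% in WT (6.33 ± 0.370, edgeR adjusted p = 1.99e-11). Both follow a C and precede another G. The exception to G was U nt 5262, with 0.177% and 0.131% in rpa190-F1205H and 0.00388%, 0.00223% and 0.00211% in WT (5.78 ± 0.338, edgeR adjusted p = 1.99e-11). G nt 6456 had 68 and 13 counts in rpa190-F1205H and none in WT. At G nt 5259 the pooled counts were 192 in rpa190-F1205H and 1 in WT, a ratio of 129 (95% counting interval 22.8 to 5109), and at G nt 5258 they were 208 and 2, a ratio of 69.7 (19.1 to 579). The remaining 2 are the neighbours G nt 4984 and G nt 4985, with log2 fold changes of 5.13 ± 0.404 and 5.39 ± 0.321. Intervals and floors cover counting error only. Of the 8 positions, 4 lie within the 18 nt from nt 5258 to 5275, a place where the WT libraries held very few 3′ ends.

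None of the 8 positions that fell most is a G, and 5 of them are C. This list in turn asked for at least 10 counts only in the WT libraries, where G was the rarest last base. Of all 481 positions called lower in the stretch, 142 are C and 5 are G. The list therefore describes these positions and is not a test of the base. At A nt 6147 the libraries held 0.0351% and 0.0388% in rpa190-F1205H, against 0.209%, 0.240% and 0.282% in WT (-2.74 ± 0.246, edgeR adjusted p = 4.85e-09). At C nt 6027 they held 0.0386% and 0.0501% in rpa190-F1205H, against 0.287%, 0.266% and 0.300% in WT (-2.74 ± 0.240, edgeR adjusted p = 3.47e-09). The lowest fold change, at C nt 6025, rests on 17 and 4 counts in rpa190-F1205H, against 39, 41 and 42 in WT (-3.07 ± 0.359). C nt 6024 is its neighbour, with a log2 fold change of -2.56 ± 0.272, so that 3 of the 8 lie within 4 nt. The others were C nt 6180 (-2.52), U nt 6142 (-2.38), U nt 5545 (-2.38) and C nt 5817 (-2.36).

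Only 5 G positions fell in the stretch, of 14 over the gene, and the change was clearest at nt 6398 and nt 6637. G nt 6398 held 0.0218% and 0.0194% in rpa190-F1205H, against 0.0766%, 0.109% and 0.0570% in WT (-1.93 ± 0.290, edgeR adjusted p = 5.55e-06). G nt 6637, 10 nt before the mature end, had 21 and 5 counts in rpa190-F1205H, against 19, 15 and 26 in WT (-1.74 ± 0.398, edgeR adjusted p = 6.12e-04). The log2 fold changes at nt 5523, nt 6152 and nt 6188 were -0.87, -0.90 and -0.90. With the DESeq2 test 3 G positions fell, without WT library 2 also 3, and under TMM scaling 22. The call at nt 6637 was lost without rpa190-F1205H library 1, that at nt 5523 when scaled to the stretch with its last 6 nt, and those at nt 6152 and nt 6188 under several alternatives.

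Neighbouring positions often moved together. The longest run of consecutive positions called higher, nt 5856 to 5880, spans 25 nt, of which 13 are G. It held 2.47% and 2.60% in rpa190-F1205H, against 0.466%, 0.425% and 0.374% in WT. The run nt 6502 to 6524 held 1.82% and 1.75% in rpa190-F1205H and 0.464%, 0.436% and 0.484% in WT, and 9 of its 23 nt are G. Every position of a run was called, including those that are A, C or U, so that these parts rose as blocks. In the third run, nt 5230 to 5246, 9 of 17 nt are G, and the shares were 1.46% and 1.14% in rpa190-F1205H and 0.496%, 0.423% and 0.409% in WT. The longest run called lower, nt 5755 to 5772, has 11 U among 18 nt. It held 0.317% and 0.438% in rpa190-F1205H, against 0.786%, 0.818% and 1.07% in WT. The run nt 5540 to 5548 held 0.405% and 0.397% in rpa190-F1205H and 1.60%, 1.46% and 1.60% in WT. Since runs were chosen by their calls, their shares and their bases describe them and are not a further test.

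The highest position after the mature end was G nt 6409, and it did not differ beyond the spread between libraries. It is in capitals below, and the run called lower at nt 6410 to 6423 starts at the next nucleotide.
chrXII:461141-461181, minus strand, nt 6389 to 6429: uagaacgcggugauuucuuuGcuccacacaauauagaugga
Its share was 6.42% and 4.42% in rpa190-F1205H and 6.32%, 7.37% and 3.68% in WT, so that the groups overlapped (log2 fold change -0.09 ± 0.247, SE, edgeR adjusted p = 0.749). Leaving out each library in turn gave values from -0.39 to 0.15, none of them past the threshold. With DESeq2 size factors it passed as lower (-0.57, edgeR adjusted p = 0.0473). The neighbours held far less. U nt 6408 before it held 0.103% and 0.0888% in rpa190-F1205H and 0.135%, 0.132% and 0.0928% in WT. C nt 6410 after it held 0.0250% and 0.0291% in rpa190-F1205H and 0.0708%, 0.0690% and 0.0633% in WT. The 14 nt from there to nt 6423 held 0.350% and 0.360% in rpa190-F1205H, against 0.857%, 0.885% and 0.799% in WT.

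**Figure D5:**
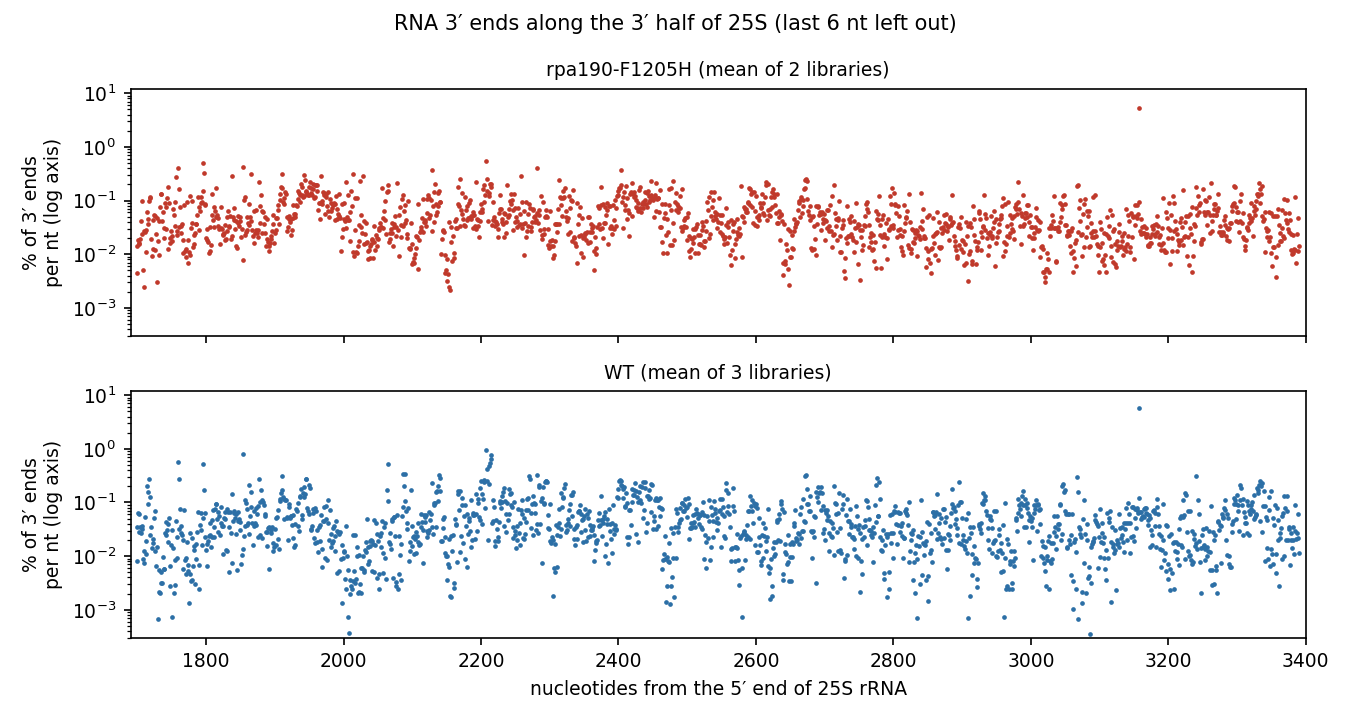
Mean share of 3′ ends at each nucleotide of the stretch without its last 6 nt (log axis) in rpa190-F1205H (upper panel) and WT (lower panel), against nucleotides from the 5′ end of 25S, with positions at 0 not drawn. The isolated point near the top in both panels is nt 6409 (25S nt 3158), at 5.42% in rpa190-F1205H and 5.79% in WT.

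Other high positions differed between the genotypes in order and in height. A nt 5458 held 0.432% and 0.680% in rpa190-F1205H, against 1.05%, 0.852% and 0.992% in WT (-0.81 ± 0.222, edgeR adjusted p = 0.00288). Scaled to the stretch with its last 6 nt it was -0.43 and did not pass. The A residues at nt 5465 and nt 5466 were among the 5 highest positions in WT and not in rpa190-F1205H. At nt 5466 the shares were 0.190% and 0.221% in rpa190-F1205H and 0.769%, 0.734% and 0.758% in WT (-1.89 ± 0.212, edgeR adjusted p = 1.08e-07), and nt 5465 changed by -1.86 ± 0.215. U nt 5104 held 0.543% and 0.308% in rpa190-F1205H and 0.952%, 1.03% and 0.474% in WT, so that the groups overlapped, although the position passed (-0.92 ± 0.281, edgeR adjusted p = 0.0066). That call was lost without WT library 2, with the DESeq2 test and when scaled to the stretch with its last 6 nt. Like nt 6409, this position was lower in WT library 3 than in the other WT libraries. U nt 5046 and U nt 5533, which were among the 5 highest in rpa190-F1205H, did not pass (-0.07 ± 0.211 and 0.35 ± 0.207). With TMM scaling nt 5046 passed as lower (-0.53), and nt 5533 passed as higher without rpa190-F1205H library 2 (0.50) and when scaled to the stretch with its last 6 nt (0.74).

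Signal was spread more evenly in rpa190-F1205H. After thinning every library to 61932 3′ ends, the Gini coefficient, which is 0 for an even profile and 1 when all signal lies at one position, was 0.513 and 0.491 in rpa190-F1205H, against 0.577, 0.574 and 0.561 in WT. The groups did not overlap, with a two-sided exact permutation p of 0.2, the smallest possible. Without nt 6409 the coefficients were 0.475 ± 0.00986 in rpa190-F1205H (SD, n = 2) and 0.544 ± 0.00602 in WT (SD, n = 3).

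The number of local peaks overlapped between the genotypes at the threshold used, and few peaks were shared. Peaks were positions of at least 10 thinned counts lying over 3 SD above the mean of their flanks, 100 nt to either side. There were 37 and 31 in rpa190-F1205H and 29, 31 and 34 in WT (two-sided exact permutation p = 0.6). The thinning is random. The means were 34 in rpa190-F1205H and 31.3 in WT in the draw used, and 34 in both with another draw. The lists below come from the draw used, and how far their members and overlap vary between draws was not examined. At 5 SD the mean was 7 in rpa190-F1205H and 11 in WT, and the groups separated (p = 0.2 in the exact permutation test, the smallest possible). In both rpa190-F1205H libraries 18 positions were peaks, and in all WT libraries 20, of which 5 were common, or 27.8% of the first list and 25% of the second. Of the 18, 10 are U and 2 are G, and of the 20, 8 are A, 6 are U and 1 is G. U followed by G accounts for 6 of the 18 and for 1 of the 20, a feature chosen after the lists were seen. At 13 positions both rpa190-F1205H libraries and no WT library had a peak. U nt 5265 is one of them, named after its values were seen, with 0.338% and 0.274% in rpa190-F1205H and 0.03296%, 0.02004% and 0.02004% in WT (3.65 ± 0.249, edgeR adjusted p = 8.73e-11). Another is U nt 5218, with 0.281% and 0.299% in rpa190-F1205H and 0.0630%, 0.0512% and 0.0591% in WT (2.32 ± 0.211, edgeR adjusted p = 5.86e-09).

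Around 4 conserved sites of the mature RNA, each found by a motif of 7 letters, the direction of the change at the peptidyl transferase centre depended on the width taken, while the other 3 were lower in rpa190-F1205H. The motifs were searched as RNA on both strands of 25S, are in capitals below and do not overlap. Each occurs at a single place on the RNA strand, and the sarcin-ricin motif also at 1 place on the other strand.
Peptidyl transferase centre, chrXII:461486-461516, minus strand: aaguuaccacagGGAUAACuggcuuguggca
A loop, chrXII:461381-461411, minus strand: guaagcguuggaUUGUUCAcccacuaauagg
Sarcin-ricin loop, chrXII:461280-461310, minus strand: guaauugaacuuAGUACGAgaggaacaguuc
Helix cut by homing endonucleases in other species, chrXII:462034-462064, minus strand: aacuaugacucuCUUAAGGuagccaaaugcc
Within 25 nt of the peptidyl transferase motif the share was 2.46% and 2.39% in rpa190-F1205H and 1.83%, 1.70% and 1.83% in WT, but the mean was lower in rpa190-F1205H within 10 nt (0.929% against 0.970% in WT, with overlap) and within 50 nt (3.74% against 4.17% in WT). Around the A loop it was 1.633% and 1.611% in rpa190-F1205H and 2.308%, 2.455% and 2.498% in WT. The sarcin-ricin loop had 1.98% and 2.11% in rpa190-F1205H, against 2.65%, 2.79% and 3.02% in WT. Around the endonuclease helix, which lies in the window that fell most, it was 3.81% and 3.58% in rpa190-F1205H and 5.51%, 5.20% and 5.62% in WT. Within 25 nt the groups did not overlap at any of the 4, with an exact permutation p of 0.2 for each, also after adjustment over them. Within 10 nt the sarcin-ricin loop had 0.603% in rpa190-F1205H and 0.640% in WT, with overlap (exact permutation p = 0.6, as for the peptidyl transferase centre). Of the tested positions, 20 of 55 rose and 8 fell around the peptidyl transferase motif, 13 of 53 rose and 22 fell around the A loop, 8 of 51 rose and 21 fell around the sarcin-ricin loop, and 9 of 57 rose and 26 fell around the helix. Over the stretch 551 of 1610 rose and 481 fell, and over the gene 46.5% rose and 20.8% fell.

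The 5′ part of 25S, nt 3252 to 4949, is the part most like this one. On the scale of the 3′ part, 788 of 1656 tested positions rose there and 300 fell, with a median log2 fold change of 0.52. Over the gene 2792 of 6000 rose and 1248 fell with a median of 0.49, so that the 5′ part lay near the gene and the 3′ part, with a median of 0.02, below both. G ended 24.2% ± 1.20 of its 3′ ends in rpa190-F1205H (SD, n = 2) and 8.85% ± 0.0736 in WT (SD, n = 3). The share at G in the 3′ part minus that in the 5′ part was 3.28 ± 0.872 percentage points in rpa190-F1205H (SD, n = 2) and 5.18 ± 1.75 in WT (SD, n = 3), and these did not separate (exact permutation p = 0.4, 0.6 adjusted over 3 measures). Leaving out the highest position of each part was an alternative chosen after seeing the data. The differences in the share at G were then -0.947 in rpa190-F1205H and -0.169 in WT, and the groups separated (exact permutation p = 0.2, the smallest possible, not adjusted). The Gini coefficient of the 5′ part was likewise lower in rpa190-F1205H, at 0.451 against 0.533 in WT, without overlap. It was higher in the 3′ part than in the 5′ part by 0.0514 ± 0.00464 in rpa190-F1205H (SD, n = 2) and by 0.0372 ± 0.0106 in WT (SD, n = 3; exact permutation p = 0.2, 0.6 adjusted). With the highest position of each part left out, these Gini differences were 0.0246 in rpa190-F1205H and 0.0126 in WT. For peaks the difference was -3.50 in rpa190-F1205H and -4.67 in WT (exact permutation p = 1.0). These values depended on the random thinning, since with another draw they were 0.50 in rpa190-F1205H and -2.33 in WT (exact permutation p = 0.6).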

How the data were processed

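The authors deposited 1 table per library, which gives for every nucleotide of 1 rDNA repeat the number of 3′ ends on each strand, as raw counts judged from the values (whole numbers, highest at mature ends). BWA 0.6, SAMtools 1.3.1, Trim Galore 0.4.1 and bcl2fastq 2.18.0.012 appear in the submitters' processing notes. How duplicates and reads shared by repeats were treated, and on which build, is not given in the sources used here, so signal belongs to no single repeat and counts may include PCR copies. Groups follow the genotype label. The sample titles spell the substitution differently.

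Sense counts of all 6858 nucleotides of the 35S gene were tested with edgeR 4.0.16 (R 4.3.3), by the quasi-likelihood test after filterByExpr, with a Benjamini-Hochberg threshold of 0.05 and no block. Each library was scaled to its counts in the 3′ part of 25S without the last 6 nt, so that a fold change is a ratio of shares, positive when higher in rpa190-F1205H. SEs are the absolute log2 fold change over the root of F. Windows of 100 nt were fitted likewise. Shares, Gini coefficients and peaks were compared by exact permutation of the libraries (Python 3.11.15, SciPy 1.17.1). Methods were tested on simulated data, which for the edgeR fit held far fewer changed positions than were called here. Scaling under change this widespread was therefore not tested by simulation. DESeq2 1.42.0, TMM and other scalings, filters, windows, a replicate block and each library left out were alternatives. The members, rules and lists were chosen with earlier results of these data known. Named positions were the 8 highest and 8 lowest called log2 fold changes among positions not overlapping between genotypes with at least 10 counts in each library of the higher genotype, the 5 of highest mean share in each genotype, the last 6 nt, and up to 5 called G positions that fell. Named windows and runs were the 3 most extreme in each direction.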

Additional observations from a re-analysis of the deposited data

Results flagged for a closer look

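Counts on the strand opposite to 25S, which no comparison above uses, were above the WT level in rpa190-F1205H. The antisense strand of the 3′ part held 358 and 61 counts in rpa190-F1205H and 66, 38 and 58 in WT. As a share of both strands this was 0.0745% ± 8.46e-04 in rpa190-F1205H (SD, n = 2) and 0.0327% ± 0.00718 in WT (SD, n = 3), without overlap (two-sided exact permutation p = 0.2, the smallest possible). With the last 6 nt left out of the sense total, the shares were 0.0979% in rpa190-F1205H and 0.0558% in WT. Groups of 2 and 3 libraries are too small for a check of single outlying samples.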

How the results depend on the processing

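Call totals depended on the scaling and the filter. Positions that rose numbered 363 with DESeq2 size factors and 330 with at least 10 counts required in every library, against 551 as reported. Positions that fell numbered 723 with TMM, 731 with DESeq2 size factors and 298 with the last 6 nt in the scaling, against 481. Windows that rose were 1 with TMM or DESeq2 size factors and 9 with the last 6 nt in the scaling, and those that fell were 12, 12 and 1, against 5 each. In windows of 50 nt, 22 of 34 passed, 10 higher and 12 lower. G positions that rose were 142 with at least 10 counts in every library. G positions that fell were 22 with TMM, 25 with DESeq2 size factors, 2 with the last 6 nt in the scaling, and 3 with the DESeq2 test.

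The cause of these changes was not tested, except that a scaling moves all values alike. The difference in the share at C turned to 0.506 percentage points with the last 6 nt kept, to 2.87 at the base before and to 0.722 at the base after. That at U turned to -12.3 with the last 6 nt kept, -0.317 with counts capped at the 99th percentile, -1.70 at the base before and -5.25 at the base after. Peaks per library differed by -4.0 at 5 SD (from 2.67). The share around the peptidyl transferase motif turned to -0.0411 within 10 nt and -0.424 within 50 nt. Among named positions, nt 5046 turned to 0.31 and nt 6409 to 0.30 with the last 6 nt in the scaling, nt 5533 to -0.10 with TMM and -0.12 with DESeq2 size factors, and window nt 6050 to 6149 to 0.0914 with the last 6 nt in the scaling.

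Leaving out each library in turn gave 815 to 1106 called positions and 9 to 11 called windows. The difference at U ran from -0.417 to 1.19, that in peaks from -0.333 to 5.67, and that between the 3′ and 5′ parts of 25S in peaks from -1.0 to 3.0. G positions that fell ran from 3 to 6. Position nt 5046 ran from -0.20 to 0.12 and nt 6409 from -0.39 to 0.15. The replicate numbers are not stated to pair the libraries, and deviations of same-numbered libraries correlated at 0.125 and 0.0118 over 1195 positions. Deviations of the 2 rpa190-F1205H libraries from their mean are equal and opposite, so that these values are not separate checks of pairing. With the replicate number as a block, 1003 positions (534 higher, 469 lower) and 10 windows passed.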
